A study of Arabidopsis thaliana with 9 samples.

Results

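GAMMA-VPE (AT4G32940), a vacuolar processing enzyme, and CATHB3 (AT4G01610), a cathepsin B-like protease, are 2 cysteine protease genes of the plant vacuole. They were chosen by name, with earlier results of these data known, and followed across every group of the experiment. Each was read at the 1 transcript cluster, the probe group that the array reports as one value, that is paired with that gene alone. They make up 2 of the 16722 transcript clusters paired with 1 gene, and both lie on chromosome 4. No transcript cluster shared by several genes includes either of them.

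The vacuole is the main lytic compartment of a plant cell and holds proteases and other hydrolases that work at acid pH. Vacuolar processing enzymes are legumain-type cysteine proteases that cut after asparagine and aspartate, and so convert the inactive precursors of other vacuolar proteins to their mature forms. GAMMA-VPE is a form of vegetative organs, known to be raised in senescing leaves. Cathepsin B-like proteases are cysteine proteases of the papain family that also take part in cell death during plant defence and in leaf senescence, in which the proteins of the leaf are broken down and their nitrogen is exported. Cytokinins are plant hormones known to delay that process.

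The study measured RNA from leaves cut from plants of Arabidopsis thaliana Col-0, the common laboratory strain, at an age of 21 days. Each sample held 10 to 15 leaves, which were kept for 48 h in the dark in MS medium, a mineral nutrient solution. The medium contained 10 µM of compound 3, 10 µM of compound 6, or 0.05% DMSO as the solvent control, with 3 biological replicates in each of the 3 groups and 1 Affymetrix array for each sample. The labels call both compounds cytokinins and give code names only. No leaves taken at the start of the 48 h are among the samples, so each difference is one between treated and solvent-treated dark leaves at the end, not a change over time.

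The running numbers in the sample descriptions set the control samples apart from the treated ones and give each compound an unmixed run, so that separate handling and treatment cannot be told apart. Array medians were 3.70 to 3.81 when taken over the 16722 transcript clusters above. Taken over the whole table of 38408, they were 3.71 to 3.83 for control and 3.87 to 4.15 for treated leaves. Of 8 leaf mesophyll markers 3 were measured. Among them rbcL, the large subunit of Rubisco, had a mean of 13.2 in control leaves, and it was not called in any comparison. RCA (Rubisco activase) rose by 0.93 with compound 3 and 1.13 with compound 6, and PRK (phosphoribulokinase, a Calvin cycle enzyme) by 1.93 and 1.79, on the log2 scale. The 1 measured root marker of 5, PYK10, had group means of 3.32 to 3.48. The 1 measured guard cell marker of 3, FMA, had means of 5.33 to 5.98. Of 6 seed, 4 xylem, 3 phloem and 2 myrosin cell markers, 0 had a transcript cluster of their own. The part of cell composition in the results below was not tested. In RNA from whole leaves, fewer cells of a type and less RNA per cell cannot be told apart.

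GAMMA-VPE was at its highest in the solvent control and fell with both compounds. Its log2 expression values, as deposited, were 12.11, 12.20 and 12.22 on the 3 control arrays. With compound 3 they were 10.61, 10.63 and 10.30, and with compound 6 they were 11.21, 11.12 and 11.35. Every treated array lay below every control array, and every compound 3 array lay below every compound 6 array, so that the 3 groups did not overlap. Among all 16722 transcript clusters, 13.4% had every compound 3 array below every control array, 12.7% had every compound 6 array there, and 8.13% had every compound 6 array above every compound 3 array. These shares are the background of each such separation reported below. The control mean was 12.18 ± 0.056 (SD, n = 3), the compound 6 mean 11.23 ± 0.12 (SD, n = 3) and the compound 3 mean 10.51 ± 0.19 (SD, n = 3).

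With compound 3, GAMMA-VPE fell by 1.66 on the log2 scale (SE 0.19, 95% confidence interval -2.06 to -1.27), which is 3.17-fold lower, or 31.5% of the control level with an interval of 23.9% to 41.6%. The Benjamini-Hochberg adjusted p of limma, the linear model fitted to all 16722 transcript clusters, was 4.52e-05. With compound 6 it fell by 0.95 (SE 0.19, interval -1.35 to -0.55), 1.93-fold lower, or 51.8% of control with an interval of 39.3% to 68.3% (limma adjusted p = 0.00424). A gene counts as called where this adjusted p, two-sided, is under 0.05. With compound 3, 11.7% of the 16722 transcript clusters were called, 6.11% lower and 5.6% higher. With compound 6, 10.3% were called, 4.72% lower and 5.62% higher. Both GAMMA-VPE differences are larger than the spread between replicates.

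CATHB3 also fell with both compounds. Its log2 values were 8.44, 8.09 and 8.02 on the control arrays. They were 7.02, 6.75 and 6.80 with compound 3, and 7.18, 7.17 and 7.07 with compound 6. All treated arrays lay below all control arrays. The compound 3 arrays also lay below the compound 6 arrays, but the highest of the former and the lowest of the latter were close, and control replicate 1 stood above the other control arrays. The means were 8.18 ± 0.22 in control leaves, 6.85 ± 0.14 with compound 3 and 7.14 ± 0.059 with compound 6 (SD, n = 3 each).

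CATHB3 fell by 1.33 on the log2 scale with compound 3 (SE 0.19, interval -1.74 to -0.92), 2.51-fold lower, or 39.8% of control with an interval of 29.9% to 52.9% (limma adjusted p = 0.000397). With compound 6 it fell by 1.04 (SE 0.19, interval -1.45 to -0.63), 2.06-fold lower, or 48.6% of control with an interval of 36.6% to 64.6% (limma adjusted p = 0.00274). Both calls, and those of GAMMA-VPE against control, held when each of the 9 arrays was left out in turn.

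**Figure D1:**
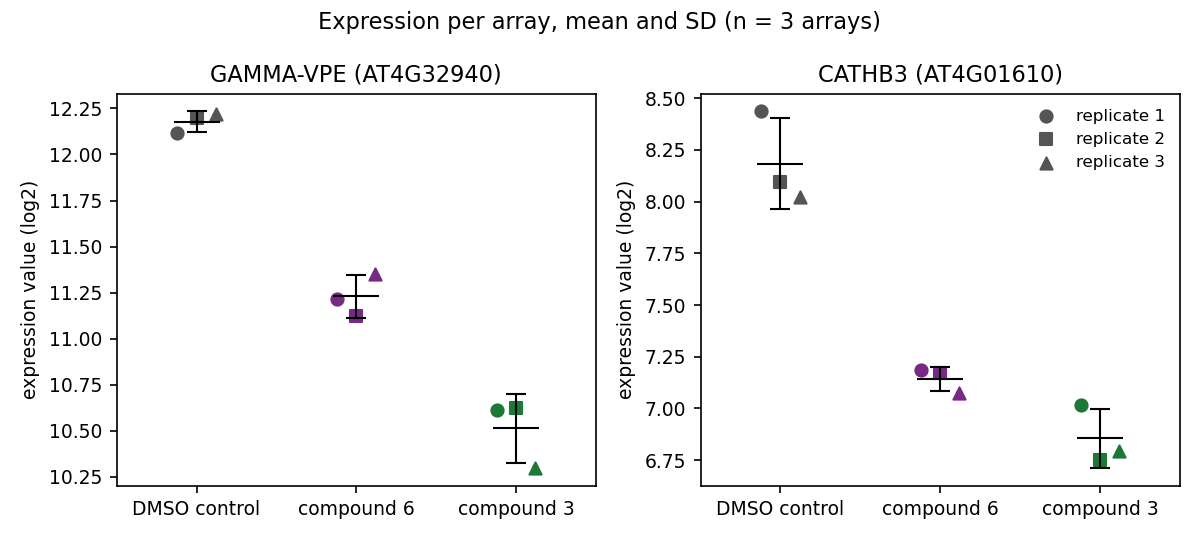
Log2 expression value (vertical axis, which does not start at 0 and differs between panels) of GAMMA-VPE and CATHB3 on each of the 9 arrays, by group, with the marker shape giving the replicate. The horizontal line is the group mean and the error bar the SD over 3 arrays. GAMMA-VPE stands in 3 separate tiers with means of 12.18, 11.23 and 10.51, whereas CATHB3 drops from 8.18 to 7.14 with compound 6 and 6.85 with compound 3.

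Few transcript clusters had a lower difference from control than the members. With compound 3, 1.16% of transcript clusters had a lower compound 3 difference than GAMMA-VPE and 1.94% a lower one than CATHB3. For compound 6 the order was the other way round, with 3.16% below GAMMA-VPE and 2.55% below CATHB3. As the members were chosen with earlier results of these data known, these ranks are a description. The median difference over all transcript clusters was 0.0097 with compound 3 and -0.02 with compound 6.

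The scaling of the arrays moves that background. With the median of the whole table subtracted from each array, the median difference of the 16722 became -0.15 with compound 3 and -0.27 with compound 6. The share of calls that were lower then rose from 52.2% to 70.7% with compound 3 and from 45.7% to 74.0% with compound 6. Under this centring the log2 difference of GAMMA-VPE was -1.82 with compound 3 and -1.19 with compound 6, and that of CATHB3 was -1.49 and -1.29. The members' direction and calls against control were the same under each of the scalings tried.

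**Figure D2:**
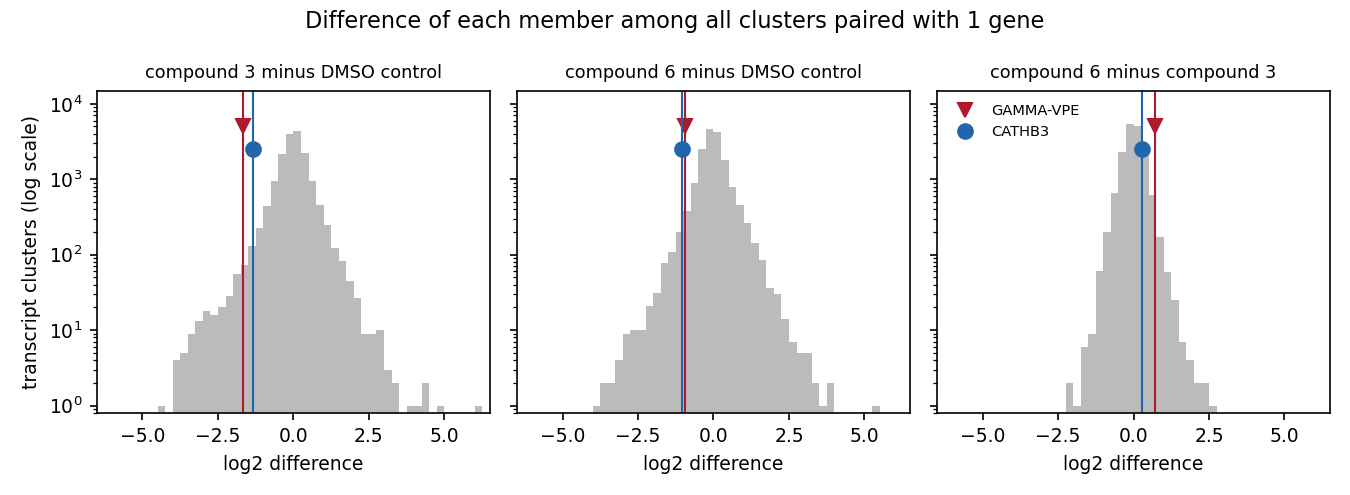
Number of transcript clusters (vertical axis, log scale) by log2 difference (horizontal axis) for all 16722 transcript clusters paired with 1 gene, in the 3 comparisons. The vertical lines mark GAMMA-VPE (triangle) and CATHB3 (circle), which lie in the lower tail against control at -1.66 and -1.33 with compound 3 and at -0.95 and -1.04 with compound 6, and at 0.72 and 0.29 between the compounds.

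The compounds were given at the same dose and for the same time, and 3 comparisons were made among the groups. GAMMA-VPE was 0.72 higher on the log2 scale with compound 6 than with compound 3 (SE 0.19, interval 0.32 to 1.12), a level 164% of that with compound 3 with an interval of 125% to 217%. The unadjusted p was 0.00176 and the adjusted p 0.134 (limma over all 16722 transcript clusters), so that the difference was not called although the 3 compound 6 arrays all lay above the 3 compound 3 arrays. Among all of them 50, or 0.299%, were called between the compounds, 36 of them (0.215%) higher with compound 6. The difference of GAMMA-VPE was called, at the same value of 0.72 and an adjusted p of 0.0371, only when the moderation of limma let the variance follow the expression level and was robust to outlying genes.

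CATHB3 differed less between the compounds, by 0.29 (SE 0.19, interval -0.12 to 0.70), or 122% of its compound 3 level with an interval of 91.9% to 162% (limma adjusted p = 0.674). The interval includes equal levels. All compound 6 arrays lay above the compound 3 arrays, as did those of 8.13% of all transcript clusters.

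The 2 genes were also set against each other within each compound. Relative to the control mean, GAMMA-VPE was at -1.56, -1.55 and -1.88 on the compound 3 arrays and CATHB3 at -1.17, -1.43 and -1.39. On the compound 6 arrays GAMMA-VPE was at -0.96, -1.05 and -0.82 and CATHB3 at -1.0, -1.01 and -1.11. The difference between the genes was -0.33 with compound 3 and 0.09 with compound 6. For the step from compound 3 to compound 6 it was 0.43. An exact two-sided permutation test over the arrays, chosen after the values had been seen, gave p of 0.2, 0.7 and 0.1, or 0.3, 0.7 and 0.3 after adjustment over the 3 comparisons. With 3 arrays against 3 the smallest p it can give is 0.1.

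Neither measured relative of GAMMA-VPE was called in any comparison. Of 4 legumain-type processing enzymes listed, 3 were measured. GAMMA-VPE, a member chosen with earlier results of these data known, alone was called lower in either comparison with control. Over all transcript clusters, 6.11% were called lower with compound 3 and 4.72% with compound 6. The absence of a call among its relatives therefore lies near the background. ALPHA-VPE, another form known from vegetative organs, had a control mean of 3.00 ± 0.40 (SD, n = 3) and log2 differences of -0.09 with compound 3 (limma adjusted p = 0.889) and -0.10 with compound 6 (adjusted p = 0.898). BETA-VPE, known for processing storage proteins in seeds, had a control mean of 3.66 ± 0.17 (SD, n = 3) and differences of -0.18 (limma adjusted p = 0.679) and -0.07 (adjusted p = 0.911). The arrays of both genes overlapped between all groups. The group means of both also lay below the array medians of 3.70 to 3.81. Whether a fall could be seen at such levels was not tested. Signal over background was not measured, and the difference between GAMMA-VPE and its relatives was not itself tested.

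Among the 3 listed cathepsin B-like proteases, all measured, 2 were called lower with each compound, beside 6.11% (compound 3) and 4.72% (compound 6) of all transcript clusters. They were CATHB3, a member chosen with earlier results of these data known, and AT1G02305. Among the relatives of CATHB3 on the list AT1G02305 alone was called. AT1G02305 had log2 values of 8.33, 8.34 and 8.44 in control leaves. It had 7.58, 7.56 and 7.58 with compound 3, and 7.59, 7.81 and 7.54 with compound 6. The treated arrays of both compounds lay below the control arrays and the 2 compounds overlapped. It fell by 0.80 with compound 3 (SE 0.18, limma adjusted p = 0.00891) and by 0.72 with compound 6 (SE 0.18, limma adjusted p = 0.018), but the second call ended without compound 6 replicate 1 (adjusted p = 0.0646), compound 6 replicate 3 (adjusted p = 0.0723) or control replicate 3 (adjusted p = 0.0515).

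AT1G02300, which neighbours AT1G02305, had log2 values of 6.00, 5.39 and 6.21 in control leaves. They were 4.83, 5.06 and 4.75 with compound 3 and 5.10, 6.28 and 5.10 with compound 6. The compound 3 arrays lay below the control arrays, and compound 6 replicate 2 stood above all control arrays while the other 2 stood below them. The differences were -0.99 with compound 3 (limma adjusted p = 0.0515) and -0.37 with compound 6 (adjusted p = 0.585), and neither was called. The median of the 3 cathepsin B-like genes, CATHB3 included, was -0.99 with compound 3 and -0.72 with compound 6. Over all genes tested it was 0.0097 and -0.02. Probes were not examined for sequence shared among the 3 genes, so cross-hybridisation between them was not tested.

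Of 27 other papain-like cysteine proteases listed 14 were measured, and with compound 3, 0 of them were called by limma, with 1 at an unadjusted p under 0.05. With compound 6, 1 was called, higher, with 3 at an unadjusted p under 0.05. Over all transcript clusters 11.7% and 10.3% were called, so that the counts of called genes lie near the background. For the unadjusted p under 0.05, the background was 3866 of 16722 transcript clusters with compound 3 and 3518 with compound 6. The median log2 difference of the 14 was 0.04 with compound 3 and -0.01 with compound 6. Most of the 14 had control means below the array medians of 3.70 to 3.81, so that this median rests largely on genes with low values. The called gene was AT1G06260, at 5.21, 5.15 and 5.14 in control leaves and 5.96, 5.93 and 5.75 with compound 6. It was 0.71 higher on the log2 scale (limma adjusted p = 0.0262), and all compound 6 arrays lay above the control arrays, as did those of 11.9% of all transcript clusters. That call ended when any of 5 of the 6 arrays of the comparison was left out (adjusted p 0.0577 to 0.0892), and its other transcript cluster, with a difference of 0.15 (limma adjusted p = 0.867), did not show it.

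AT4G16190 had the highest control mean of the family list, 11.7 ± 0.16 (SD, n = 3), with log2 differences of -0.41 with compound 3 and -0.42 with compound 6 (limma adjusted p = 0.291 and 0.31). AT3G19390 had differences of -0.38 and -0.64, and AT2G21430 of -0.43 and -0.70 (limma adjusted p with compound 6 of 0.433 and 0.0857). None of these 3 was called, and the control arrays of AT3G19390 spread widely, with an SD of 0.88. The remaining 10 members, AT3G19400, AT3G43960, AT4G23520, AT2G34080, AT1G29080, AT1G29090, AT2G27420, AT3G49340, AT3G54940 and AT3G45310, had log2 differences from -0.32 to 0.64 with compound 3 and from -0.48 to 0.53 with compound 6, with limma adjusted p of at least 0.163. Of these 10, only AT3G45310 had a control mean, 4.10, above the array medians of 3.70 to 3.81. The others had control means of 1.55 to 3.38, and whether a difference could be seen at such levels was not tested. Between the compounds, 0 of the 14 were called by limma and 2 had an unadjusted p under 0.05. So had 1692 of all 16722 transcript clusters.

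**Figure D3:**
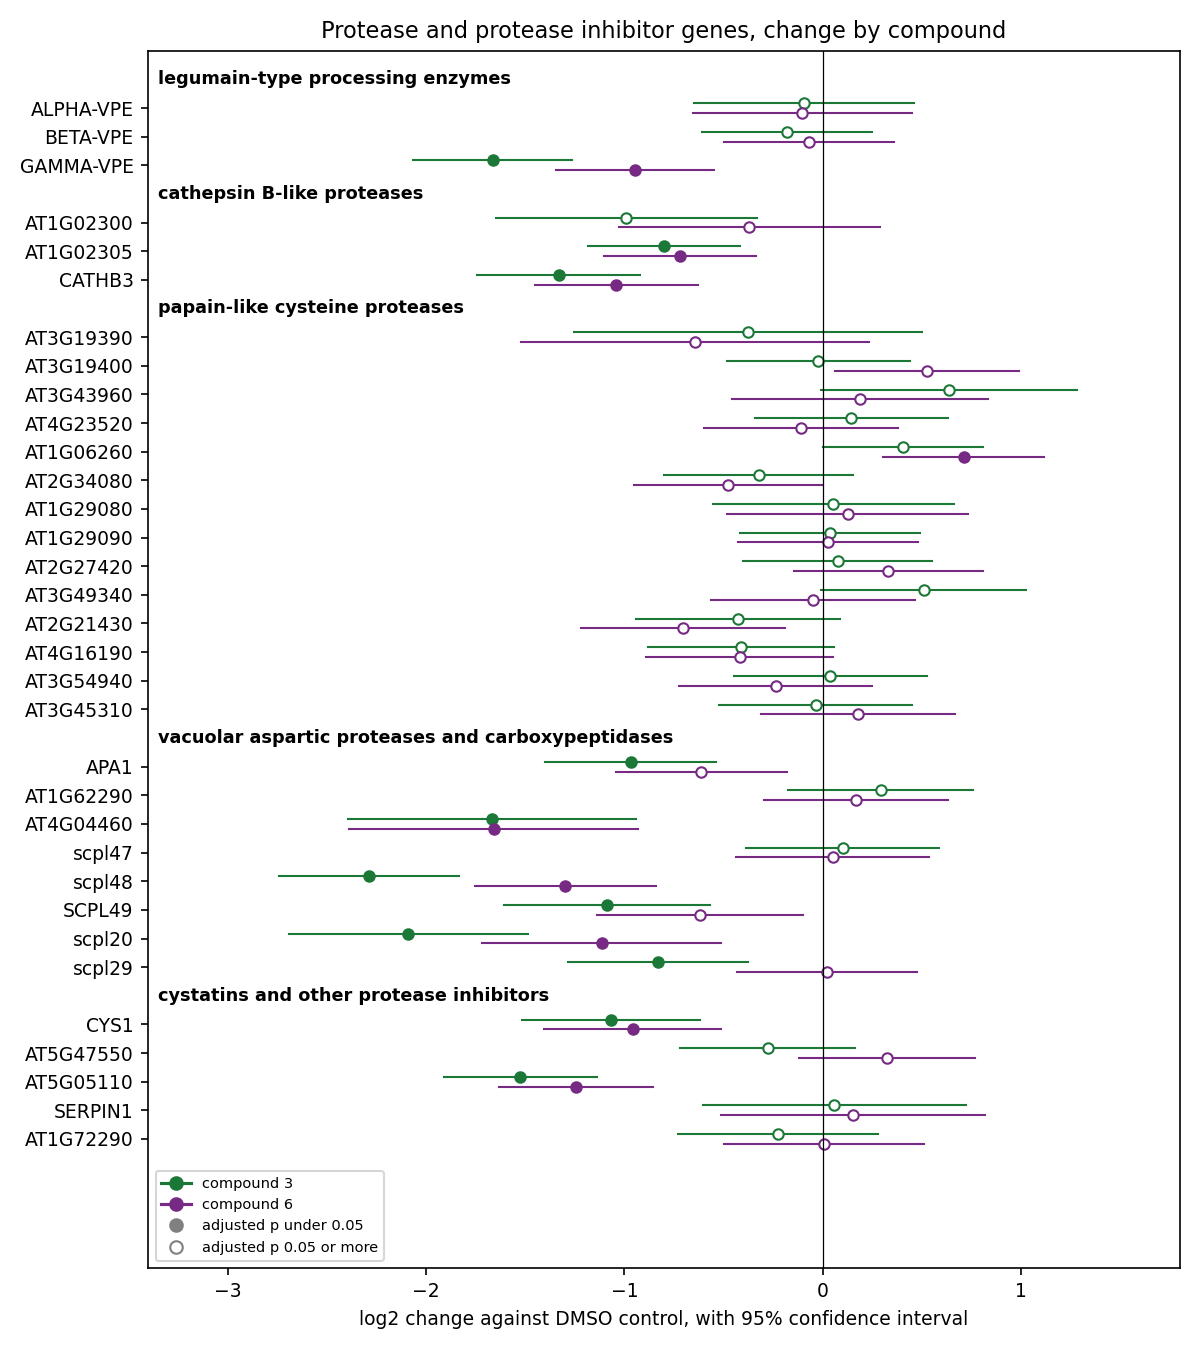
Log2 difference from DMSO control (horizontal axis) with its 95% confidence interval for every measured gene of 5 lists of proteases and protease inhibitors, compound 3 in green and compound 6 in purple. Filled points were called at an adjusted p under 0.05. GAMMA-VPE, CATHB3 and AT1G02305 are called lower with both compounds. Most papain-like genes lie around 0, and most of that list had control means below the array medians of 3.70 to 3.81. The greatest differences are those of scpl48 and scpl20 with compound 3, at -2.29 and -2.09.

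Vacuoles also hold aspartic proteases and serine carboxypeptidases, which take part in the breakdown of proteins. Of 9 listed genes of these types 8 were measured, and where in the cell each acts was not tested. Of the 8, 6 were called lower with compound 3 and 3 with compound 6, and 0 were called higher. Over all transcript clusters, 6.11% were called lower with compound 3 and 4.72% with compound 6. All gene lists were chosen with earlier results of these data known, so that the counts for this list and those below are a description. The median difference of the 8 was -1.03 with compound 3 and -0.61 with compound 6. Between the compounds 0 of the 8 were called by limma, with 3 at an unadjusted p under 0.05. Of all 16722 transcript clusters, 1692 had such an unadjusted p between the compounds.

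The serine carboxypeptidase-like gene scpl48 had log2 values of 10.11, 10.09 and 10.52 in control leaves, 8.23, 7.93 and 7.70 with compound 3, and 8.75, 9.03 and 9.05 with compound 6. As for GAMMA-VPE, its 3 groups did not overlap and compound 3 was lowest. Of all transcript clusters, 13.4% had compound 3 wholly below control, 12.7% compound 6 wholly below control and 8.13% compound 6 wholly above compound 3. The share with all 3 separations at once was not counted. It fell by 2.29 with compound 3 (SE 0.21, limma adjusted p = 8.31e-06) and by 1.30 with compound 6 (SE 0.21, limma adjusted p = 0.00118). The difference between the compounds, 0.99, was not called (limma adjusted p = 0.0659).

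Another carboxypeptidase-like gene, scpl20, fell by 2.09 with compound 3 (limma adjusted p = 0.000218) and by 1.11 with compound 6 (adjusted p = 0.0194). The second call ended without compound 6 replicate 1 (adjusted p = 0.0802) or control replicate 3 (adjusted p = 0.073). SCPL49 fell by 1.09 with compound 3 (limma adjusted p = 0.00867), and its difference with compound 6 was -0.62 (adjusted p = 0.143). AT4G04460 had log2 values of 4.89, 4.15 and 3.34 in control leaves (SD 0.78) against 1.97 to 2.77 on the treated arrays, without overlap. Such separation below control was seen in 13.4% (compound 3) and 12.7% (compound 6) of all transcript clusters. The treated values of AT4G04460 lay below the array medians of 3.70 to 3.81, and the filter on dim transcript clusters left this gene out. It fell by 1.67 with compound 3 and by 1.66 with compound 6 (limma adjusted p = 0.00481 and 0.00568). APA1, an aspartic protease, and scpl29 were the other 2 called with compound 3 and are named here after their values were seen. APA1 fell by 0.97 with compound 3 (limma adjusted p = 0.00539) and had a difference of -0.61 with compound 6 (adjusted p = 0.0723). The scpl29 difference was -0.83 with compound 3 (limma adjusted p = 0.0187), a call that ended without compound 3 replicate 2, control replicate 1 or control replicate 3 (adjusted p 0.0608 to 0.0873), and 0.02 with compound 6 (adjusted p = 0.979). The members that were not called in either comparison with control, AT1G62290 and scpl47, had differences of 0.05 to 0.29. Their group means, 1.83 to 2.22, lay below the array medians.

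Cystatins are small proteins that block papain-type proteases in the active site, and the list of cystatins and other protease inhibitors had 5 measured genes of 10. Of these 2 were called lower with each compound and 0 higher, beside 6.11% lower and 5.6% higher over all transcript clusters with compound 3, and 4.72% and 5.62% with compound 6. CYS1, a cystatin, had log2 values of 7.14, 7.48 and 7.11 in control leaves. They were 5.98, 6.54 and 6.00 with compound 3 and 6.24, 6.30 and 6.31 with compound 6. No treated array reached the control arrays, as in 13.4% (compound 3) and 12.7% (compound 6) of all transcript clusters. CYS1 fell by 1.07 with compound 3 (SE 0.21, limma adjusted p = 0.00371) and by 0.96 with compound 6 (SE 0.21, limma adjusted p = 0.00827).

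AT5G05110, on the same list, was at 8.74, 8.77 and 8.72 in control leaves, 7.26, 7.17 and 7.22 with compound 3, and 7.66, 7.34 and 7.50 with compound 6. Its groups did not overlap. Of all transcript clusters, 13.4% had compound 3 wholly below control, 12.7% compound 6 wholly below control and 8.13% compound 6 wholly above compound 3. For AT5G05110 the order of the groups was the same. It fell by 1.52 with compound 3 (limma adjusted p = 7.46e-05) and by 1.24 with compound 6 (limma adjusted p = 0.000487). The other 3 genes of the list, SERPIN1 among them, had differences of -0.28 to 0.32 and were not called. The median of the list was -0.28 with compound 3 and 0.0067 with compound 6, with 2 genes called lower and 3 not called.

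Of 8 other vacuolar and acid hydrolases listed 1 was measured, AT1G62660. Its log2 values were 9.11, 9.51 and 9.23 in control leaves, 7.27, 7.53 and 6.99 with compound 3, and 7.51, 7.56 and 7.90 with compound 6. Every treated array lay below every control array, as in 13.4% (compound 3) and 12.7% (compound 6) of all transcript clusters. It fell by 2.02 with compound 3 (limma adjusted p = 2.77e-05) and by 1.63 with compound 6 (limma adjusted p = 0.000242).

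Proton pumps acidify the vacuole, and 7 of 24 listed pump subunits and tonoplast channels were measured. By limma, 0 of the 7 were called in any of the 3 comparisons, and 0 had an unadjusted p under 0.05. With 11.7% and 10.3% of all transcript clusters called against control, a count of 0 called among 7 lies near the background. An unadjusted p under 0.05 was found for 3866 of 16722 transcript clusters with compound 3, 3518 with compound 6 and 1692 between the compounds. The median log2 difference of the 7 was -0.15 with compound 3 and -0.21 with compound 6. AT3G58730, with the greatest difference of the list with compound 3, was at -0.48 with compound 3 (limma adjusted p = 0.381) and -0.15 with compound 6 (adjusted p = 0.863).

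Proteases of other compartments were measured sparsely. Of 20 listed chloroplast proteases 4 were measured and 0 were called by limma in any comparison, with 1 at an unadjusted p under 0.05 with compound 3. Such an unadjusted p was found for 3866 of all 16722 transcript clusters with compound 3, 3518 with compound 6 and 1692 between the compounds. Of all transcript clusters, 11.7% were called with compound 3, 10.3% with compound 6 and 0.299% between the compounds. A count of 0 called among 4 lies near that background. AT1G09130, with the greatest difference of the list with compound 3, was at -0.40 with compound 3 and -0.34 with compound 6 (limma adjusted p = 0.204 and 0.332). Of 23 subunits of the 20S proteasome core, which degrades proteins in the cytosol and nucleus, 2 were measured. Neither was called or had an unadjusted p under 0.05, which for 2 genes also lies near the background. AT3G26340 had differences of -0.60 with compound 3 and -0.21 with compound 6 (limma adjusted p = 0.258 and 0.804). Of 15 genes of vacuolar sorting and fusion and 9 metacaspases, 0 had a transcript cluster of their own.

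The genes whose values followed each member most closely were found by the root mean square difference between log2 profiles over the 9 arrays, each centred on its own mean, among 16547 other genes. This is a description, and the arrays share their groups. The genes were picked on these same arrays, so that differences near those of the member follow from the choice. For GAMMA-VPE the nearest were AT1G70780 at 0.107, AT4G26490 at 0.127, AT1G67360 at 0.130, AT3G50840 at 0.147 and AT3G20720 at 0.153 (log2 units). These 5 had log2 differences from control of -1.77 to -1.57 with compound 3 and -1.13 to -0.98 with compound 6. The nearest genes with a symbol were UGT84A3 (a glucosyltransferase) at 0.198, NOL (a chlorophyll b reductase, which acts at the start of chlorophyll breakdown) at 0.216, NQR at 0.223, SFP1 (a sugar transporter) at 0.230 and ATG8G (a coat protein of autophagosomes, which carry cell contents to the vacuole) at 0.235. These 5 had log2 differences of -1.78 to -1.37 with compound 3 and -1.32 to -0.88 with compound 6. The ATG8G call with compound 6 ended without compound 6 replicate 1 or 2, or control replicate 2 or 3 (limma adjusted p 0.0564 to 0.0799).

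For CATHB3 the nearest were NQR at 0.117, AT2G43150 at 0.134, SFP1 at 0.139, AT2G42040 at 0.141 and AT2G42490 at 0.142. With a symbol, ICDH (isocitrate dehydrogenase) at 0.161, TET10 (a tetraspanin) at 0.162 and UBC32 (a ubiquitin-conjugating enzyme) at 0.168 came next after NQR and SFP1. The 8 genes had log2 differences of -1.45 to -1.08 with compound 3 and -1.09 to -0.80 with compound 6. NQR and SFP1 stood among the named neighbours of both members. The members themselves were 0.256 apart, which placed CATHB3 at rank 43 for GAMMA-VPE and GAMMA-VPE at rank 129 for CATHB3.

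**Figure D4:**
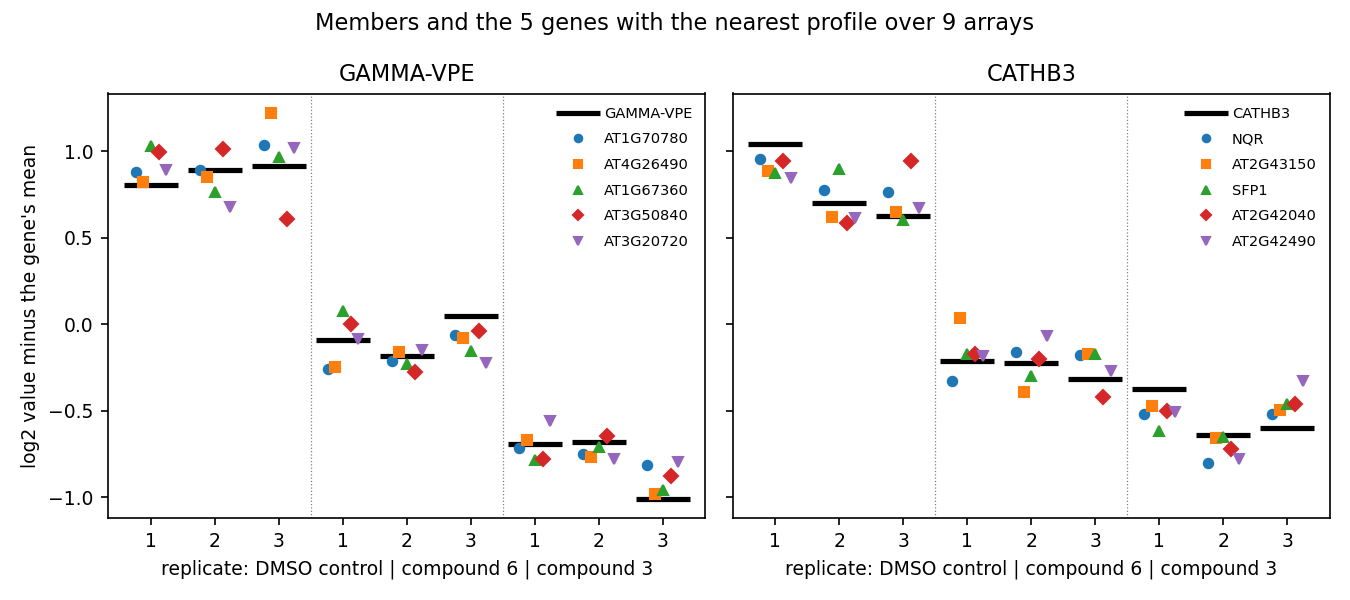
Log2 value minus the gene's own mean over 9 arrays (vertical axis) by array (horizontal axis, replicates within each group) for GAMMA-VPE and CATHB3, drawn as black bars, and the 5 genes nearest to each, drawn as coloured points. The GAMMA-VPE panel shows 3 levels, with root mean square differences of 0.107 to 0.153 from the bars, and in the CATHB3 panel (0.117 to 0.142) the 2 compounds lie close together.

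Genes beside the members on chromosome 4, in the order of RefSeq assembly TAIR10.1, were examined after the members' values had been seen. GAMMA-VPE overlaps AT4G32930, whose log2 difference was -0.82 with compound 3 (limma adjusted p = 0.0107, called lower) and -0.57 with compound 6 (adjusted p = 0.0758). The table holds no strand, and whether probes of one gene also read the other was not tested. AT4G32920, AT4G32915, AT4G32950 and AT4G32960, the genes on either side, were not called against control, with differences of -0.65 to 0.20. Of the genes beside CATHB3, AT4G01600 had differences of -0.74 with compound 3 (limma adjusted p = 0.0514) and -0.76 with compound 6 (adjusted p = 0.0486, called lower). AT4G01595 and AT4G01640 had differences of -0.32 to 0.18 and were not called. AT4G01630, the gene directly after CATHB3, had no transcript cluster of its own.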

How the data were processed

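The deposited values are log2 expression values from RMA, 1 per transcript cluster and array; oligo, RMA and limma are named without a version in the submitters' processing notes. RMA subtracts background, equalises the distributions of the arrays and summarises probes, so that a shift shared by most genes can be removed. The deposited arrays were still not fully equal, with whole-table medians of 3.71 to 3.83 for control and 3.87 to 4.15 for treated leaves. The log base is not stated and was taken as 2 from the range of 0.132 to 13.9; every fold change rests on it. The genome build was not given in the sources used here, so no coordinates are printed.

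Gene names came from the platform table, updated through RefSeq (TAIR10.1), in which 16670 of the 16722 transcript clusters paired with 1 gene were found. Another 759 are paired with several genes and 20927 are unnamed; all are used only in alternatives and array medians. One limma 3.58.1 model (R 4.3.3, lmFit and eBayes) covered all 9 arrays, with 6 residual and 7.89 prior degrees of freedom. P-values were adjusted by Benjamini-Hochberg over the 16722, and a gene was called under 0.05. They reflect the variation among the biological replicates of one experiment. The script was tested on simulated data. Arrays have no read depth, and their number limits the precision. Figures used matplotlib 3.10.9 in Python 3.11.15.

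The 2 members and the 18 gene lists (181 entries, 52 measured) were chosen with earlier results of these data known. Named were the members, every measured legumain-type, cathepsin B-like and papain-like gene, up to 4 called genes of each other list with the greatest change against control (or 1 as a value where none was called), and the 5 nearest profiles to each member, overall and among genes with a symbol. A gene with several transcript clusters was represented by the one with the highest mean. Genes the tables give only by locus are given no other name. Alternatives were a replicate block, other centring or normalization, all transcript clusters, a filter on dim ones, other fits and each array left out.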

Additional observations from a re-analysis of the deposited data

How the results depend on the processing

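Against control, both members were called lower with both compounds in each of 9 fits that left out 1 array and in 8 other settings, with log2 differences of -1.82 to -1.56 (GAMMA-VPE, compound 3), -1.19 to -0.89 (GAMMA-VPE, compound 6), -1.49 to -1.20 (CATHB3, compound 3) and -1.29 to -0.91 (CATHB3, compound 6). Between the compounds, GAMMA-VPE was called only with a variance trend and robust moderation (0.72, adjusted p = 0.0371). In the other 7 settings its adjusted p was 0.0717 to 0.293 and without each array 0.121 to 0.315, and CATHB3 was called in none (0.511 to 0.881). Testing all 38408 transcript clusters gave 3360 calls with compound 3 against 1957, 3144 with compound 6 against 1728, and 3 between the compounds against 50. Between the compounds the count was 29 with the replicate block and 96 without dim transcript clusters. It was 20 to 112 without 1 array: 22 to 26 without a compound 6 array, 20 to 29 without a compound 3 array, and 112 without control replicate 3; the cause was not tested. Lower calls made up 61.1% with compound 6 after a second quantile normalization and 41.3% between the compounds after centring on all transcript clusters, against 45.7% and 28%.

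The labels number the replicates alike in each group without saying that a number marks a shared batch. Of 9 same-number pairs of arrays, 2 had deviations correlated over 0.1 (range -0.37 to 0.26), and 3 of 9 arrays correlated best with their own number. Deviations from a mean of 3 arrays are not independent, so these correlations cannot decide whether a number marks a shared batch. With the replicate block the members' differences were unchanged, with adjusted p against control of 0.000328 and 0.0138 (GAMMA-VPE) and 0.00115 and 0.00644 (CATHB3), and the counts were 1648 and 1453. The call of AT1G06260 with compound 6 also ended with centring on all transcript clusters (0.47, adjusted p = 0.158) and a second quantile normalization (0.57, adjusted p = 0.0612), and that of scpl20 with all transcript clusters tested (adjusted p = 0.06).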
